A study of Mus musculus with 6 samples.

Results

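The genes described here encode the translation initiation and elongation factors of the mouse, with the poly(A)-binding proteins, the release and recycling factors and the kinases, inhibitors and methyltransferases whose names carry the same stems. They were taken by name from the deposited table, as protein-coding features whose symbol begins with Eif1 to Eif6, Eef1 or Eef2 (Eef1e1 was left out), together with Pabpc1, Pabpc4, Tpt1, Etf1, Gspt1 and Abce1. The rule found 73 genes among 55232 features, of which 22046 are protein-coding. The sequenced cells were mouse pulmonary microvascular endothelial cells, given as a cell line in the labels, which had spent 12 h in the lower chamber of a co-culture. In the control group, 3 samples had been cultured with untreated TCMK-1 cells, a tubular epithelial line of mouse kidney. The second, the repletion group, comprised 3 samples cultured with TCMK-1 cells whose ATP had been depleted and then repleted. The endothelial cells themselves were untreated in both groups. The comparison asks how the endothelial transcripts differ between these co-cultures.

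Translation of an mRNA begins when eIF4E binds its cap, the scaffold eIF4G and the helicase eIF4A join it, and a small ribosomal subunit carrying eIF3, eIF1, eIF1A and the initiator tRNA on eIF2 is recruited and scans to the start codon. eIF2B recharges eIF2 with GTP, and kinases that phosphorylate the alpha subunit of eIF2 block that step, while the 4E-BP proteins block eIF4E until mTORC1 phosphorylates them. Elongation is then carried by eEF1A, which delivers aminoacyl-tRNA, its exchange complex eEF1B, and eEF2, which moves the ribosome along. Many mRNAs of this machinery start with a pyrimidine tract (5′ TOP), shared with ribosomal protein mRNAs, through which mTORC1 and LARP1 are known to set their translation and stability.

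RefSeq gene starts on build GRCm38.p6 were on hand for 55 of the 73 genes. A window of 300 bases, from 250 before the start to 50 after it, was searched on both strands for 3 short motifs chosen after the expression values had been seen. The letters CCGGAAG, as ETS factors bind, were present for 18 of the 55 genes (32.7%). They were present for 20.9% of 9202 tested protein-coding genes and 9.93% of all 27025 genes in the same table. A gene was counted if any of its windows held the letters, so genes with several annotated starts had more chances of a match. The E-box CACGTG was present in 23.6%, against 11.9% and 8.09%. The cyclic AMP response element TGACGTCA was present in 3.64%, against 3.63% of the tested genes and 2.03% of all. Among members with a window that fell in the test below, 7 of 18 held the ETS letters and 5 the E-box, and among those that rose 1 of 5 held the ETS letters and 2 the E-box. Among the 30 that passed in neither direction, 10 held the ETS letters and 6 the E-box. None of the 3 motifs contains another, and these are matches of letters only. The stretches below are the 100 bases before the start of some of the genes, 5′ to 3′ on the gene's strand. Motif letters are in capitals (CTTCCGG is the ETS motif read on the other strand). None of them overlaps an exon of GENCODE M21. Eif3c, Eif3g and Eif3l also fell and hold the ETS letters, but their stretches overlap an exon and are not shown. Eif3d, Eif5a, Eif3f, Eif3k and Eef2 are shown because they fell and hold a motif, Eef1a1 as the most abundant member and Eif3a as the eIF3 subunit that rose, both without any of the 3 motifs here. Eif5a has several annotated starts, and the 1 shown was picked because it holds the ETS letters. Another of its stretches holds the E-box, and the rest hold none of the 3 motifs. The stretches shown for Eif5a and Eef1a1 lie inside the genes as deposited, downstream of their outermost ends.
Eif3d, chr15:77970825-77970924, minus strand: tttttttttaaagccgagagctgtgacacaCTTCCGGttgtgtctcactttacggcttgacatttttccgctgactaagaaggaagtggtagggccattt
Eif5a, chr11:69920631-69920730, minus strand: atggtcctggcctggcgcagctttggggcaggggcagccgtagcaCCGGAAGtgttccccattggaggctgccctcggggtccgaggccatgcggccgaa
Eif3f, chr7:108934315-108934414, plus strand: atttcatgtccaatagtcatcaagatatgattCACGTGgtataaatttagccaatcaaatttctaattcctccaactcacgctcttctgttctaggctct
Eif3k, chr7:28981889-28981988, minus strand: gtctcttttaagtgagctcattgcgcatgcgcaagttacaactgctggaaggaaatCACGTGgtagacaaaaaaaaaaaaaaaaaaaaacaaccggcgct
Eef2, chr10:81176531-81176630, plus strand: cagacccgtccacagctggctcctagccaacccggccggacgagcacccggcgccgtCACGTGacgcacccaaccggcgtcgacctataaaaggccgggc
Eef1a1, chr9:78481725-78481824, minus strand: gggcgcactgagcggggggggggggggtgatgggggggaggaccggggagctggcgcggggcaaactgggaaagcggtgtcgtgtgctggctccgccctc
Eif3a, chr19:60790694-60790793, minus strand: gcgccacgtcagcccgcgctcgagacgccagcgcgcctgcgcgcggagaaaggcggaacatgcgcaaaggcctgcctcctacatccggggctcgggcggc
The ETS letters end 63 bases before the start of Eif3d and 48 before the start of Eif5a that is shown. The E-box ends 62, 38 and 37 bases before the starts of Eif3f, Eif3k and Eef2.

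Of the 73 genes, 69 had enough reads to be tested, and 26 of them fell in the repletion group while 6 rose and 37 passed in neither direction (edgeR's quasi-likelihood test, two-sided, Benjamini-Hochberg adjustment over all 13804 tested features, threshold 0.05). The background was 19.2% of all tested features fallen and 20.5% risen, against 37.7% and 8.70% of the tested members. Members are more abundant than most features, and the share that falls is higher among abundant ones. Among the 2452 features with a mean of at least 100 CPM (counts brought to a common library total with TMM factors), a bound set after the values were seen, 28.7% fell and 22.7% rose, against 22 and 5 of the 45 members at that level. The median log2 fold change (repletion over control) was -0.19 over the tested members and 0.00 over all tested features. The groups did not overlap for 38 members, where 50.3% of all tested features did so. Of the 38, 30 were lower and 8 higher in the repletion group, against 25.4% and 25% of all tested features. In bulk RNA, fewer cells of a kind and less RNA per cell cannot be told apart. The labels do not say whether replicates were separate cultures. The p-values set the group difference against the scatter within the groups of these 6 samples, which could be technical scatter. With all members summed, they held 4.84%, 4.66% and 4.75% of the counts of the control libraries and 4.08%, 3.80% and 3.92% of the repletion libraries. The mean went from 4.75% ± 0.0857 to 3.94% ± 0.138 (SD, n = 3 each), groups that did not overlap (exact permutation test, two-sided, p = 0.1, the smallest that 3 against 3 allows).

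**Figure D1:**
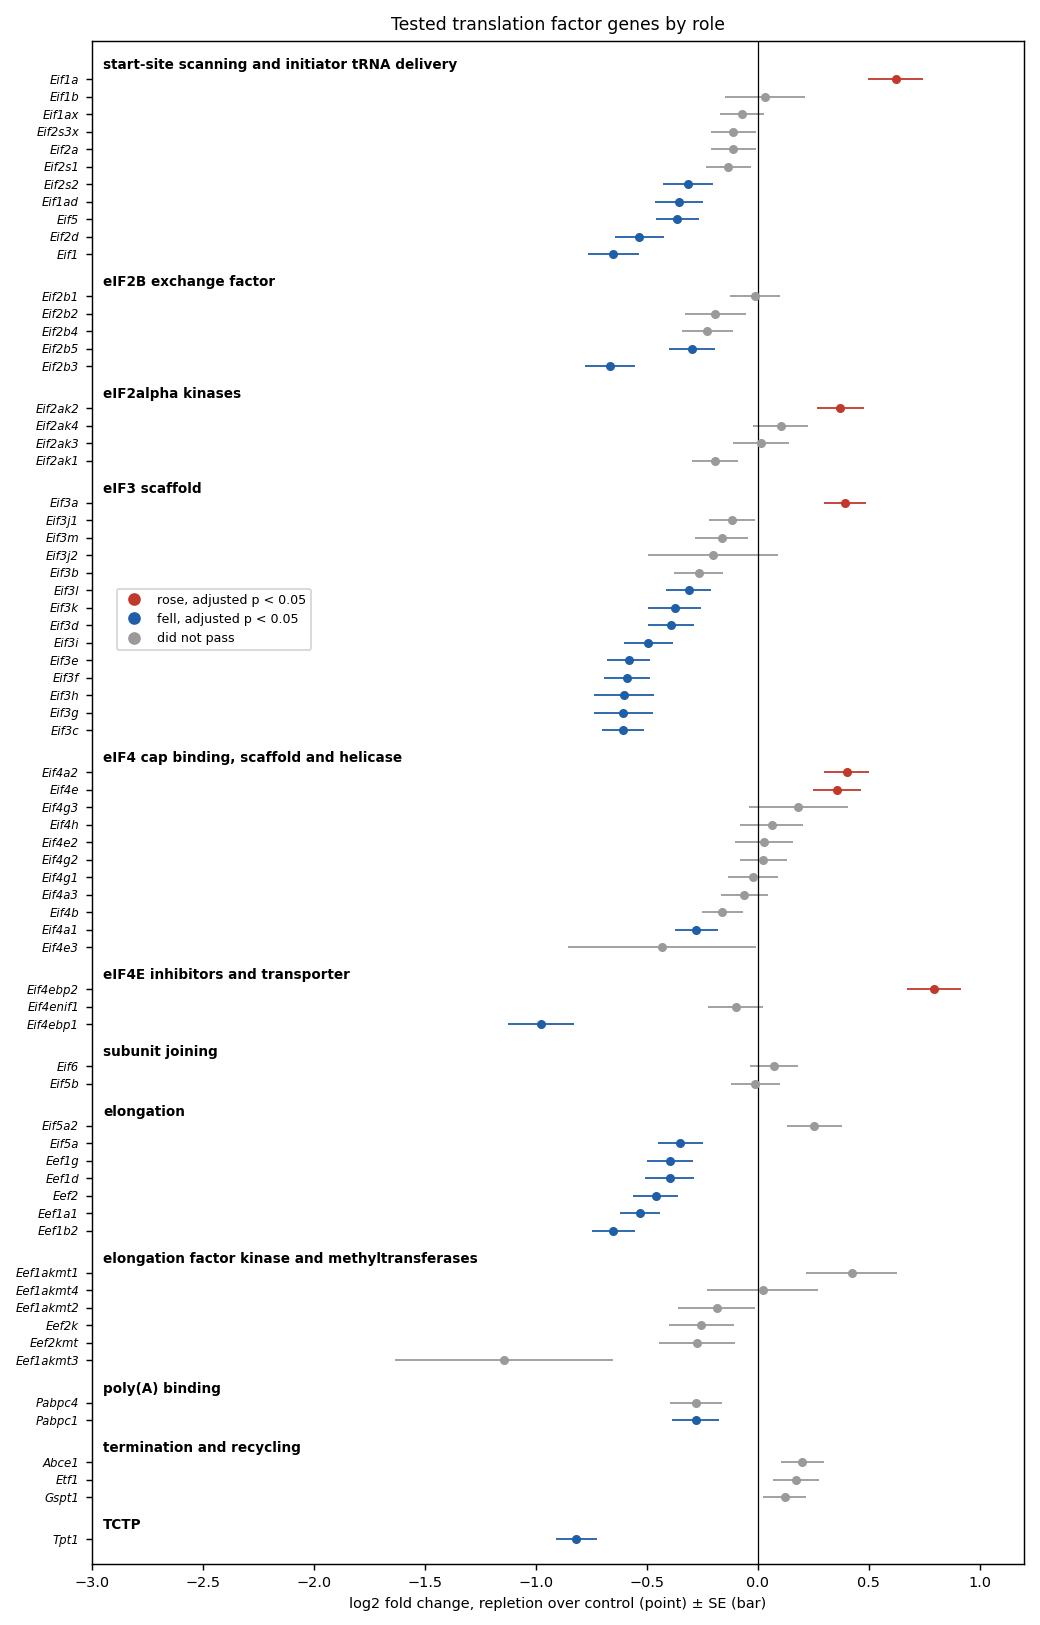
Log2 fold change (x axis, repletion over control) of the 69 tested members, grouped by role, with points for the edgeR estimate and bars for its standard error. The elongation factors and the eIF3 subunits hold 15 of the 26 members that fell, and the 6 that rose are spread over 5 roles.

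Of the 7 elongation factors tested, 6 fell, none rose, and the median log2 fold change was -0.40. Over all tested features 19.2% fell and 20.5% rose. Eef1a1, the gene of eEF1A, was the most abundant member at 4836 ± 88.2 FPKM in the controls (the authors' level per length of gene, SD, n = 3). It measured 12287, 11970 and 12372 CPM in the controls and 9068, 7631 and 8654 CPM in the repletion group. Every repletion sample was below every control, and the log2 fold change was -0.53 ± 0.09 (SE, adjusted p = 0.000247). It alone held 1.19% ± 0.00976 of the control libraries' counts and 0.862% ± 0.0791 of the others. Eef2, the translocation factor, read 4250.5, 4655 and 4742 CPM in the controls and 3694, 2920 and 3306 CPM in the repletion group, again without overlap. Its log2 fold change was -0.46 ± 0.10 (adjusted p = 0.00179). Eef1b2, an exchange subunit that recharges eEF1A, had the largest fall of the role. It stood at 549, 495 and 527 CPM against 342, 313 and 344 CPM, and fell by 0.65 ± 0.10 on the log2 scale (adjusted p = 7.12e-05). The other subunits of the exchange complex, Eef1d and Eef1g, both fell by 0.40. Eif5a, which relieves stalled elongation, was at 816, 678 and 812 CPM in the controls and 585, 587 and 639 CPM in the repletion group. Its groups did not overlap either, and it fell by 0.35 ± 0.10 (adjusted p = 0.0123), a call lost without control replicate 3 (-0.32, adjusted p = 0.0616) and when the trend with length and GC content was removed (-0.20, adjusted p = 0.0883). Its paralog Eif5a2 had 52.5, 45.1 and 43.5 against 50.6, 58.8 and 58.8 CPM, which overlap, and a log2 fold change of 0.25 ± 0.12 (adjusted p = 0.109). Eif5a2 passed with the library size as the only scaling (0.32, adjusted p = 0.0467). Eef1a2, the form of muscle and neurons, was not tested: between 0 and 0.288 CPM was seen.

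**Figure D2:**
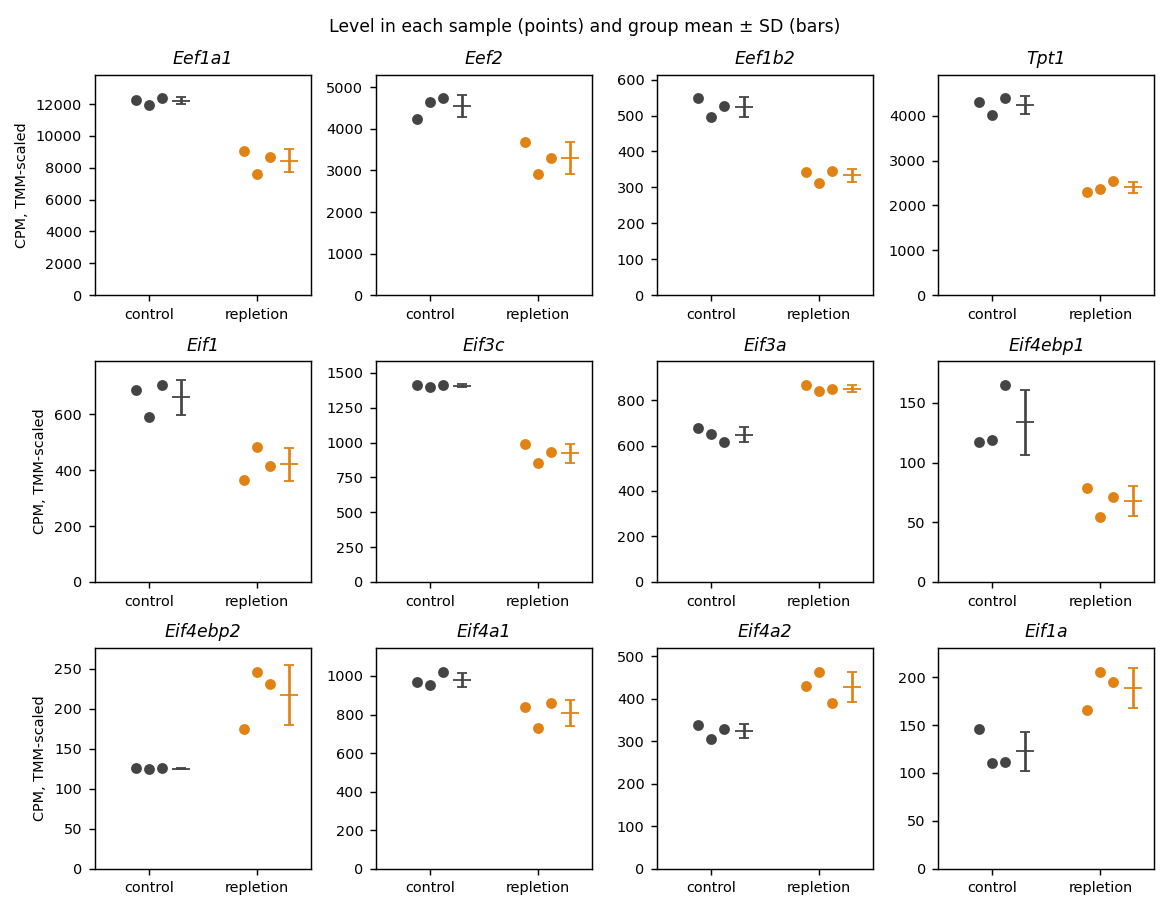
CPM in each sample for 12 members (points, 3 per group; y axes start at 0), with the group mean and SD as bars. Eef1a1, Eef2, Eef1b2, Tpt1, Eif1, Eif3c, Eif4ebp1 and Eif4a1 lie lower in every repletion sample than in any control, and Eif3a, Eif4ebp2, Eif4a2 and Eif1a lie higher.

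eIF3 is the largest initiation factor, a scaffold on the small ribosomal subunit. Of its 14 genes, 9 fell, 1 rose and 4 did not pass, with a median log2 fold change of -0.38. The shares over all tested features were 19.2% fallen and 20.5% risen. Eif3c, a core subunit and the most abundant of them at 396 ± 3.16 FPKM in the controls, measured 1412, 1396 and 1413 CPM in the controls and 988, 851 and 930 CPM in the repletion group. The control samples were nearly alike and the repletion samples were all lower (log2 fold change -0.61 ± 0.10, adjusted p = 0.000109). Eif3h, Eif3f and Eif3e, which sit with it in the body of the complex, fell by 0.60, 0.59 and 0.58. Eif3g and Eif3i, of a peripheral module, fell by 0.61 and 0.49, and Eif3d, which can bind caps in its own right, fell by 0.39. Eif3k and Eif3l, which form a pair at its edge, fell by 0.38 and 0.31. Their calls are the least firm of the role. That of Eif3k was lost without control replicate 1 (adjusted p = 0.0673), repletion replicate 2 (0.0728) or repletion replicate 3 (0.0736). It was also lost under scaling by library size alone (0.0524) and with the length and GC trend removed (-0.24, adjusted p = 0.101). That of Eif3l was lost without control replicate 3 (0.0646) or repletion replicate 2 (0.0751) and with the library size as the only scaling (0.0596). Eif3b, the scaffold of the peripheral module, had 637, 636 and 665 CPM in the controls and 604, 453 and 553 CPM in the repletion group. These do not overlap, yet the log2 fold change of -0.27 ± 0.11 did not pass (adjusted p = 0.0609). Without repletion replicate 1 it did (-0.37, adjusted p = 0.0117). It also passed with DESeq2 (adjusted p = 0.0490), with limma-voom (0.0438) and without the filter on low counts (0.0259). Eif3m, Eif3j1 and the scarce Eif3j2, at 1.98 ± 0.579 FPKM in the controls, had values of -0.16, -0.12 and -0.20. Eif3j1 matches 100% of the Eif3j2 transcript at 99.41% identity and held 2397% to 4398% of its counts. Whether the Eif3j2 counts are reads of Eif3j1 was not tested.

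Eif3a, the largest eIF3 subunit and the base on which the complex assembles, went the other way. Its samples stood at 678, 651 and 616 CPM in the controls and 866, 839 and 848 CPM in the repletion group. All repletion samples exceeded all controls, and it rose by 0.39 ± 0.09 on the log2 scale (adjusted p = 0.00322). Per length, Eif3a went from 124 ± 5.98 to 164 ± 1.76 FPKM while Eif3c went from 396 ± 3.16 to 262 ± 17.8 FPKM. In the controls the order of the subunits was Eif3c, Eif3h, Eif3b, Eif3f, and Eif3a stood within the spread of Eif3m at 126 ± 17.9 FPKM.

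**Figure D3:**
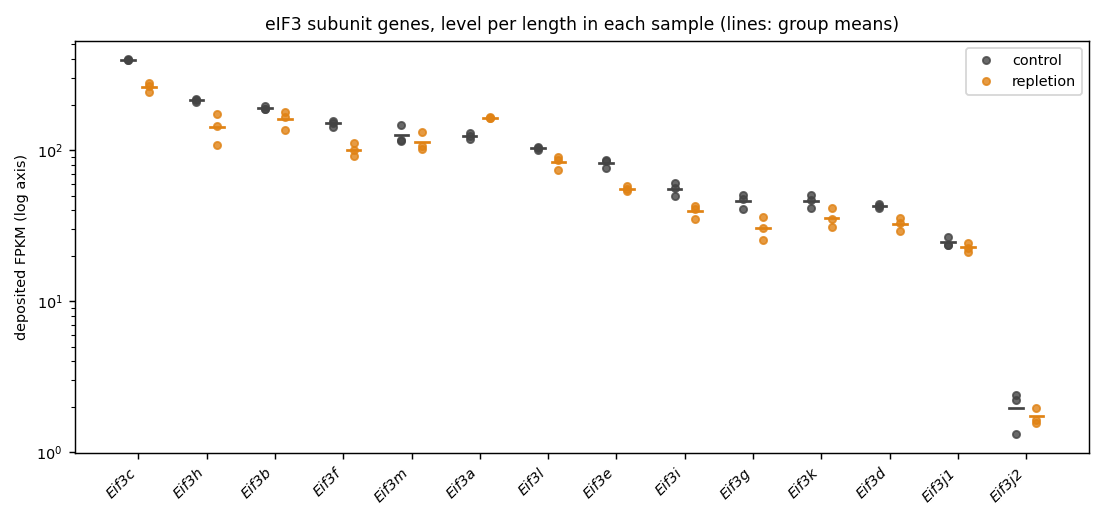
Deposited FPKM (log axis) of the 14 eIF3 subunit genes in each of the 6 samples, ordered by control mean; short lines are group means. Of the 14, Eif3a alone has all its repletion points above its controls, while those of 10 subunits lie wholly below theirs.

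Among the factors of scanning and initiator tRNA delivery, 11 were tested: 5 fell, 1 rose and 5 did not pass (median log2 fold change -0.13). By share, 45.5% fell and 9.09% rose, against 19.2% and 20.5% of all tested features. Eif1, which guards start codon choice, had 687, 590 and 705 CPM in the controls and 364, 482 and 416 CPM in the repletion group. The groups did not overlap, and it fell by 0.65 ± 0.11 (adjusted p = 0.000289). Eif1a, whose protein eIF1A opens the subunit for scanning, behaved in the opposite way. It measured 146, 110.5 and 112 CPM in the controls and 166, 206 and 195 CPM in the repletion group, all higher, and rose by 0.62 ± 0.12 (adjusted p = 0.000813). Its X-linked paralog Eif1ax had a log2 fold change of -0.07 ± 0.10 (adjusted p = 0.590). Eif2d, which delivers tRNA outside the usual route, fell by 0.53. Eif5, which triggers GTP hydrolysis on eIF2, had 1099, 1009 and 1008 CPM in the controls and 808, 860.4 and 755 CPM in the repletion group, all lower. It fell by 0.36 ± 0.10 (adjusted p = 0.00669), a call lost without repletion replicate 3 (adjusted p = 0.0507). Eif1ad fell by 0.36, a call lost without control replicate 3 (0.0704) or repletion replicate 3 (0.0538). Of the subunits of eIF2 itself, 1 passed. Eif2s1, the alpha subunit that stress kinases phosphorylate, had 243, 211 and 235 CPM against 201, 204 and 223 CPM, which overlap (log2 fold change -0.13 ± 0.10, adjusted p = 0.314). Eif2s3x, the gamma subunit, had -0.11 ± 0.10 (adjusted p = 0.403). Eif2s2, the beta subunit, fell by 0.31 (adjusted p = 0.0339), but that rests on control replicate 1, at 572 CPM against 430 and 444 CPM in the others. Without it the value was -0.19 (adjusted p = 0.167), and the call was also lost without repletion replicate 3 (adjusted p = 0.0937) and with the library size as the only scaling (0.0793). Eif2s3y, the Y-linked gamma subunit, had 0 counts in all 6 libraries, where 3 counts would be 0.168 to 0.193 CPM.

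All 5 eIF2B subunit genes had values below 0 and 2 of them fell, where 19.2% of all tested features fell. Eif2b3, a subunit of its catalytic core, had 94.2, 97.7 and 99.4 CPM in the controls and 68.5, 56.9 and 58.1 CPM in the repletion group, without overlap, and fell by 0.67 ± 0.11 (adjusted p = 0.000177). Eif2b5, the catalytic subunit, had 162, 147 and 152 CPM against 116, 134 and 125 CPM, again without overlap, and fell by 0.30 ± 0.10 (adjusted p = 0.0284). That call was lost without control replicate 1 (adjusted p = 0.0736), control replicate 3 (0.0685), repletion replicate 1 (0.0760) or repletion replicate 3 (0.0829) and with the library size as the only scaling (0.0739), and the value was -0.15 (adjusted p = 0.244) with the length and GC trend removed. Eif2b4, Eif2b2 and Eif2b1 had -0.23, -0.19 and -0.01. Without repletion replicate 1, Eif2b2 passed (-0.36, adjusted p = 0.0427).

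The 4 kinases of eIF2 alpha respond to different stresses. Eif2ak2 encodes PKR, which senses double-stranded RNA and is induced by interferon. It had 88.2, 75.9 and 81.8 CPM in the controls and 105, 103 and 109.8 CPM in the repletion group, all higher, and rose by 0.37 ± 0.10 (adjusted p = 0.00955). The call was lost without control replicate 2 (0.30, adjusted p = 0.0717) or repletion replicate 3 (0.34, adjusted p = 0.0537). Eif2ak3 (PERK, of the endoplasmic reticulum) had 30.2, 34.5 and 31.8 CPM against 32.8, 30.6 and 34.0 CPM, and Eif2ak4 (GCN2, for amino acid shortage) 47.1, 61.2 and 52.8 against 60.6, 54.3 and 58.1 CPM. Both overlapped between the groups, and neither passed, with log2 fold changes of 0.01 ± 0.13 and 0.10 ± 0.12 (adjusted p = 0.945 and 0.536). Eif2ak1 (HRI, for haem shortage and mitochondrial stress) had 87.2, 94.2 and 90.2 CPM against 82.5, 77.9 and 77.4 CPM, groups that did not overlap, and a value of -0.19 ± 0.10 (adjusted p = 0.149). Eif2ak1 passed with the length and GC trend removed (-0.24, adjusted p = 0.0445). Downstream of these kinases, 8 of 12 tested genes of eIF2 alpha phosphatase and ATF4 output fell and 1 rose, with a median of -0.58. Over all tested features 19.2% fell and 20.5% rose. Atf4 itself did not pass (-0.28 ± 0.13, adjusted p = 0.109), nor did Atf3 (-0.07) or Atf5 (0.09). Ddit3 (CHOP) had the smallest p, with 50.4, 49.5 and 62.0 CPM in the controls against 14.9, 10.9 and 12.0 CPM, and fell by 2.10 ± 0.15 (adjusted p = 5.23e-08). Ppp1r15b, the constitutive phosphatase subunit, rose by 0.51 ± 0.10 (adjusted p = 0.000550).

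The cap-binding, scaffold and helicase genes of eIF4 had no common direction: of 11 tested, 2 rose, 1 fell and 8 did not pass, with a median log2 fold change of 0.02. The share that rose, 18.2%, was near the 20.5% of all tested features, and 9.09% fell against 19.2%. Eif4e, the cap-binding protein, had 196, 158 and 161 CPM in the controls and 211, 235 and 214 CPM in the repletion group. The repletion samples were all higher, and it rose by 0.36 ± 0.11 (adjusted p = 0.0147). The call was lost without control replicate 2 (0.28, adjusted p = 0.0966) or control replicate 3 (0.30, adjusted p = 0.0910). Eif4a2, a helicase paralog, had 338, 304 and 330 CPM against 429, 463 and 391 CPM, all higher, and rose by 0.40 ± 0.10 (adjusted p = 0.00475). Eif4a1, the main helicase, had 968, 951 and 1021 CPM against 837, 732 and 858 CPM, all lower, and fell by 0.28 ± 0.10 (adjusted p = 0.0327). That fall was not called without control replicate 3 (adjusted p = 0.115), repletion replicate 2 (0.0880) or repletion replicate 3 (0.0519), nor with the library size as the only scaling (0.0855). The scaffolds Eif4g1, at -0.02 ± 0.11 (adjusted p = 0.897), and Eif4g2, the cap-independent relative known as DAP5, at 0.02 ± 0.11 (adjusted p = 0.879), did not pass. Eif4g1 had 576, 682 and 667 CPM in the controls and 695, 531 and 671 CPM in the repletion group, and Eif4g2, the most abundant of the role at 498 ± 57.7 FPKM, had 5807, 4839 and 4734 CPM against 4638, 5789 and 5212 CPM. In both the groups overlapped. Eif4e1b, an oocyte form, was not tested, with at most 0.252 CPM in any library.

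The inhibitors of eIF4E showed the largest opposed changes. Eif4ebp1 (4E-BP1), a target of ATF4 as well as of mTORC1, had 117, 119 and 165 CPM in the controls and 78.7, 54.0 and 70.8 CPM in the repletion group. All repletion samples were lower, and it fell by 0.98 ± 0.15 (adjusted p = 8.26e-05), the largest fall among the members that passed. Eif4ebp2 (4E-BP2) had 127, 124 and 126 CPM in the controls, nearly the same value, and 175, 246 and 232 CPM in the repletion group. It rose by 0.79 ± 0.12 (adjusted p = 8.10e-05), the largest rise of any member. Per length, the ratio of Eif4ebp1 to Eif4ebp2 was 2.44, 2.52 and 3.46 in the controls and 1.19, 0.577 and 0.804 in the repletion group. Eif4ebp1 was thus the more abundant of the pair in all controls and in repletion replicate 1, and the less abundant in the other 2 repletion samples. Eif4ebp3 was not tested, at most 0.934 CPM, and Eif4enif1, the transporter of eIF4E, had -0.10 ± 0.12.

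Pairs of related members were compared by the log2 ratio of their CPM within each sample, which does not depend on the scaling of the library. Of 11 pairs listed, 10 could be computed and 5 had groups that did not overlap, a share like the 50.3% of single features whose groups did not overlap. The ratio of Eif4a1 to Eif4a2 changed by -0.68, from a mean of 1.60 ± 0.0694 to 0.92 ± 0.240. The ratios of Eif1a to Eif1ax, of Eif4e to Eif4e3 and of Eif5a to Eif5a2 changed by 0.70, 0.79 and -0.60. Eif4e3 rests on 1.38 to 2.74 CPM. That of Eif4ebp1 to Eif4ebp2 changed by -1.76. Each of these 5 had an exact permutation p of 0.1, the smallest possible, and 0.2 after adjustment over the 10 pairs, so none passes the threshold. The ratio of Pabpc1 to Pabpc4 was 4.37 ± 0.124 in the controls and 4.37 ± 0.0561 in the repletion group, and that of Eif1 to Eif1b, which differed by -0.67, overlapped between the groups.

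**Figure D4:**
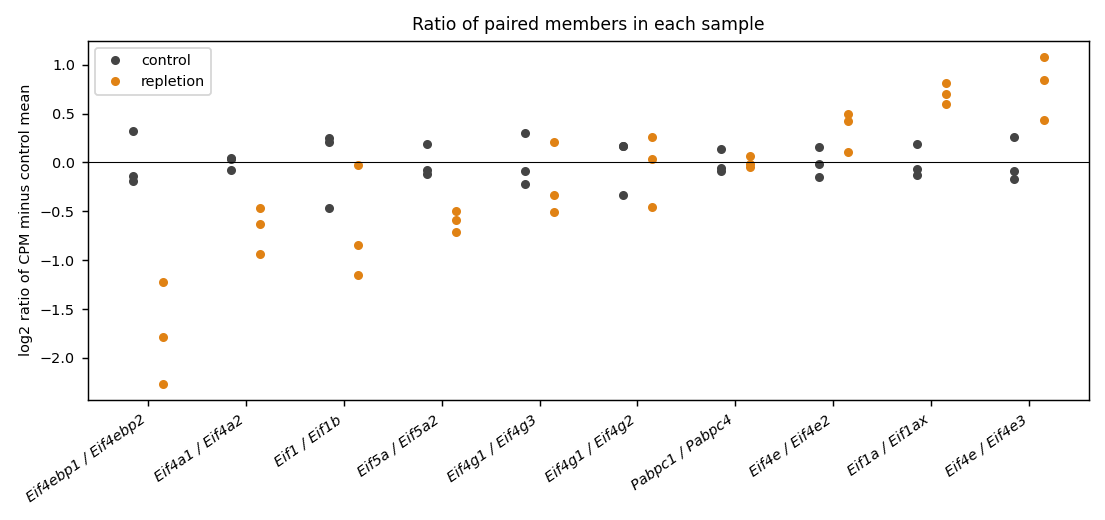
Log2 ratio of the CPM of paired members in each sample, less the control mean of that pair (y axis), for 10 pairs. The repletion points of Eif4ebp1 over Eif4ebp2, Eif4a1 over Eif4a2 and Eif5a over Eif5a2 lie below all controls, and those of Eif1a over Eif1ax and Eif4e over Eif4e3 above.

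Pabpc1, the main cytoplasmic poly(A)-binding protein, had 4258, 4029 and 4024 CPM in the controls and 3921, 3014 and 3199 CPM in the repletion group, without overlap. It fell by 0.28 ± 0.10 (adjusted p = 0.0403), close to the threshold. The call was lost without control replicate 1 (adjusted p = 0.0702), control replicate 3 (0.0720), repletion replicate 2 (0.104) or repletion replicate 3 (0.154). Scaling by library size alone (0.106) lost it as well, as did a minimum of 1 CPM in 3 samples (0.0502). Pabpc4, the inducible form, had nearly the same log2 fold change, -0.28 ± 0.12, and did not pass (adjusted p = 0.0645). It passed without repletion replicate 1 (-0.41, adjusted p = 0.00585) and without the filter on low counts (-0.32, adjusted p = 0.0275).

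No factor of subunit joining, termination or recycling passed the test. Nor did 8320 of the 13804 tested features, so the absence of a call among so few genes is not particular to them. Eif5b, the GTPase of subunit joining, had 128, 116 and 121 CPM against 125, 104 and 132 CPM. Eif6, which keeps the subunits apart, had 223, 173 and 201 CPM against 198, 214 and 216 CPM. Both overlapped between the groups, with log2 fold changes of -0.01 ± 0.11 and 0.07 ± 0.11 (adjusted p = 0.943 and 0.631). Etf1 and Gspt1, the release factors, had 0.17 ± 0.10 and 0.12 ± 0.10 (adjusted p = 0.198 and 0.340). Abce1, which splits the ribosome after termination, had 361, 325 and 318 CPM against 390, 383 and 381 CPM, groups that did not overlap, and 0.20 ± 0.10 (adjusted p = 0.111). With the library size as the only scaling, Abce1 passed (0.26, adjusted p = 0.0369). The kinase of eEF2, Eef2k, had 23.5, 32.6 and 30.0 CPM against 23.3, 24.2 and 24.7 CPM. These overlap and gave -0.26 ± 0.15 (adjusted p = 0.180), or -0.40 (adjusted p = 0.0469) without control replicate 1. Of the 5 methyltransferases of eEF1A and eEF2, none passed. Eef1akmt3, at 3.18, 3.11 and 1.85 CPM against 0.642, 2.20 and 0.838 CPM, had the widest error, -1.14 ± 0.49 (adjusted p = 0.0740), and it passed without repletion replicate 2 (-1.87, adjusted p = 0.00907). It also passed with limma-voom (-1.29, adjusted p = 0.0430) and without the filter on low counts (-1.18, adjusted p = 0.0449). Eef1akmt1 had 10.5, 8.44 and 14.0 CPM against 14.1, 12.9 and 17.2 CPM and a value of 0.42 ± 0.20 (adjusted p = 0.109), with 0.63 (adjusted p = 0.0388) without control replicate 3. With the length and GC trend removed it also passed (0.65, adjusted p = 0.0147).

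Tpt1 encodes TCTP, an abundant protein that binds eEF1A and is a classical TOP mRNA. It had 4296, 4019 and 4392 CPM in the controls and 2295, 2372 and 2543 CPM in the repletion group. The highest repletion sample lay well below the lowest control, and it fell by 0.82 ± 0.09 (adjusted p = 4.46e-06), the smallest p of any member. A list of 11 members known as TOP mRNAs was drawn up after the values had been seen: Eef1a1, Eef1b2, Eef1d, Eef1g, Eef2, Eif3e, Eif3f, Eif3h, Eif4b, Pabpc1 and Tpt1. Of these, 10 fell and Eif4b, an activator of the eIF4A helicase, did not pass (-0.16 ± 0.09, adjusted p = 0.186). All 11 had groups that did not overlap, and the median log2 fold change was -0.53. Over all tested features 19.2% fell and the groups of 50.3% did not overlap. Of the 58 other tested members, 16 fell and 6 rose, with a median of -0.13. Since the list was made with these values known, the contrast is a description only. The cytosolic ribosomal protein genes, the largest TOP family, had a median of -0.57, and 65 of 79 fell. Rplp0 had the smallest p among them (log2 fold change -0.75 ± 0.10, adjusted p = 1.54e-05). Only Rps10 rose, at 4.27 to 5.84 CPM in the controls. Ribosomal proteins held 5.43%, 4.90% and 5.67% of the control counts and 3.71%, 3.87% and 3.90% of the others. The 7 members above 1000 CPM on average held 6 that fell, and Eif4g2 was the exception. All of these 6 but Eif3c are on the TOP list, so the count is not a separate result. No share over all features was computed at that level, and 28.7% of features with a mean of at least 100 CPM fell.

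The other genes of the pathway were listed by function with earlier results known, and their counts are to be read against the 19.2% of all tested features that fell and the 20.5% that rose, to which several of these short lists come close. Of 14 genes of mTORC1 and S6 kinase, 5 rose and 3 fell. Deptor, an inhibitor within the complex, rose by 1.06 ± 0.15 on the log2 scale (adjusted p = 5.15e-05), and Ddit4 (REDD1), an upstream inhibitor, fell by 2.07 ± 0.19 (adjusted p = 4.74e-07), from 30.0, 32.7 and 21.9 to 7.41, 5.85 and 6.83 CPM. Akt1s1, Rptor, Tbc1d7 and Rps6kb1 also rose and Sesn2 and Tsc1 also fell, named after their values were seen. Of 17 partners of eIF4F and poly(A)-binding protein, 5 fell and 2 rose. Pdcd4, an inhibitor of eIF4A, fell by 1.19 ± 0.15 (adjusted p = 1.02e-05), while Ddx3x, a helicase that aids scanning, rose by 0.75 ± 0.10 (adjusted p = 1.70e-05). Of 15 genes of non-canonical initiation and ribosome rescue, 5 fell and 2 rose, led by Gtpbp2 (-0.62, adjusted p = 0.00237) and Denr (0.50, adjusted p = 0.00743). Dhps, which makes the hypusine residue of eIF5A, fell by 0.79 ± 0.14 (adjusted p = 0.000223), one of 3 that fell among 9 genes modifying eIF5A and eEF2, where Dph3 rose by 0.39 (adjusted p = 0.0360). In selenocysteine elongation 2 of 7 fell and 1 rose, with Pstk, the kinase of its tRNA, at -0.95 ± 0.16 (adjusted p = 0.000219) and Sephs1 at 0.31 (adjusted p = 0.0364).

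By length and base composition, the 26 that fell had a median length of 3108 bases and 51.1% GC, the 6 that rose 5257 bases and 42.2% GC, and the 37 others 4468 bases and 49.9% GC. Over all tested features, those that fell had a median of 3592 bases and 50.5% GC and those that rose 5434 bases and 48.8% GC, so the contrast in length is not peculiar to the members, and none of these differences was tested. Across the 69 tested members the log2 fold change had a Spearman rho of 0.28 with length, -0.26 with GC content and -0.19 with level, against 0.19, -0.07 and -0.14 over all tested features. These describe genes of shared libraries and are not independent points. After removal of each library's trend with length and GC content, 24 members fell and 7 rose, against 2854 and 2585 of 13566 features. Near-identical annotated copies, at 95% identity over at least 30% of the longest transcript, exist for 21 members, and reads could be split between them. Of the 19 tested members with a copy, 12 fell and none rose, and of the 50 without, 14 fell and 6 rose, with a median of -0.12. For Eef1a1 and Eef2 the copies held 0.558% to 0.837% and 0.275% to 0.545% of the member's counts. They held 8.59% to 11.7% for Tpt1, 12.0% to 14.5% for Eif4a1, 8.41% to 13.8% for Eif2s2 and 9.29% to 14.2% for Eif1, where the match is the protein-coding gene Emd. The largest copies of Tpt1, Eif4a1 and Eif2s2 fell as well, by 1.01 (Tpt1-ps3), 0.36 (Eif4a-ps4) and 0.54 (Gm9892). Emd, which fell by 0.49, is a gene of its own that matches 49.8% of the Eif1 transcript. Its counts need not be reads of Eif1. Another feature lies on the opposite strand of 24 members, such as Rfc4 at the end of Eif4a2 (chr16:23107444-23114136, plus strand), and the strand setting is not given in the sources used here. Small nucleolar RNA genes lie inside 11 members, of which 5 fell (45.5%) and 2 rose (18.2%). Over all tested features, against which the counts of members here are to be read, 19.2% fell and 20.5% rose.

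The libraries held 15582349 to 17817618 counts and 17899 to 22130 features with a count. Replicate libraries of each group were further apart than counting noise (chi-square per degree of freedom 9.2 to 26). Repletion replicate 2 was the lowest repletion sample for 17 of the 26 members that fell and the highest for 4 of the 6 that rose. The same counts over all features were not made, so they cannot be called particular to the members. Without this replicate, 23 members fell and 6 rose, against 2569 and 2670 of 14332 features. Mitochondrially encoded features held 2.05% to 2.24% of the control counts and 2.45% to 3.00% of the repletion counts. The endothelial label was checked with 12 marker genes, which summed to 2391 to 2667 CPM in the controls and 2535 to 2983 CPM in the repletion group, with Cldn5 too low to be tested. Single markers went both ways: Erg, Eng, Tek and Egfl7 rose by 1.06, 0.69, 0.58 and 0.42 on the log2 scale, Esam and Vwf fell by 0.46 and 0.45, and the other 5 tested did not pass. Markers of the co-cultured tubular epithelium summed to 12.9 to 16.8 and 13.8 to 18.5 CPM, with Epcam, Krt18, Slc34a1 and Umod at 0 in all libraries. Fibroblast markers summed to 20.4 to 23.0 and 17.6 to 25.2 CPM, with Lum at 0. Leukocyte markers summed to 378 to 417 and 223 to 311 CPM, nearly all of it Cd68, a lysosomal gene that fell (-0.63, adjusted p = 0.000475), with Cd3e and Itgam at 0. The part of the marker and mitochondrial changes in the members' results was not tested. In the authors' deposited table, 72 of the members carry a value, and by its adjusted p the same 26 fell and 6 rose, where 10.1% and 11.4% of its 24680 features with a value did.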

How the data were processed

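RNA of 6 endothelial cell samples was sequenced by the submitters. The deposited table holds, per the file headers, raw read counts per feature and sample, which are whole numbers. It also holds FPKM, which the authors scaled by feature length and by a factor per sample. These FPKM served for levels between genes only. The authors' deposited columns further give group means of size-scaled counts (a signal, not used), a log2 fold change of repletion over control, and p-values with adjusted p-values. Build GRCm38.p6 and the tools DESeq2 1.20.0, featureCounts 1.5.0-p3 and HISAT2 2.0.5 appear in the submitters' processing notes, without roles. The annotation release and the strand setting of the counting are not given in the sources used.

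From the counts, filterByExpr by group kept 13804 of 55232 features, which were scaled with TMM factors (0.97 to 1.03) and tested in R 4.3.3 with edgeR 4.0.16 by the quasi-likelihood test, two-sided, with group as the sole term and Benjamini-Hochberg adjustment (threshold 0.05). The common biological coefficient of variation was 14.1%. Total counts of 15582349 to 17817618 per library set the precision of low genes. Standard errors come from the F statistic. Alternatives were DESeq2 1.42.0, limma-voom (limma 3.58.1), other scalings and filters, feature subsets, a replicate block, removal of length and GC trends, each replicate left out, and members without near-identical copies. Copies were found with BLAST 2.17.0 among GENCODE M21 transcripts, which place 70 of the 73 members as deposited. Promoter windows are RefSeq's on GRCm38.p6.

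Members and lists were chosen with earlier results of these data known. Named with full values were, in each role, the tested member of smallest p in either direction and that of highest mean CPM, plus Eef1a1, Eef2, Eif4ebp1, Eif4ebp2, Eif2s1, Eif4e, Eif4g1, Eif4a1, Eif4a2, Eif5a, Pabpc1, Tpt1, the eIF2 alpha kinases and Eef2k. From each further list, the member with the smallest p in each direction was named. Other members given with values, and the lists of TOP members and motifs, were picked after values were seen.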

Additional observations from a re-analysis of the deposited data

How the results depend on the processing

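Over 17 alternatives, no called member changed sign, and 17 that fell and 4 that rose (Eif1a, Eif3a, Eif4a2, Eif4ebp2) passed in each. With the library size as the only scaling, which moved the median of all features to 0.06, 20 members fell and 8 rose. The member median was -0.13, and 2199 of all 13804 features fell while 3214 rose. Without members that have near-identical copies, 14 of 50 fell (28.0%) and the median was -0.12. Of the 19 left out, 12 fell (63.2%), with a median of -0.31. Without Eef1a1, the difference in the members' share of counts was -0.482 percentage points in place of -0.813. With each replicate left out in turn, 19 to 28 members fell, 4 to 6 rose, the median ranged from -0.25 to -0.18, and 1977 to 2745 features fell and 2195 to 2765 rose in all. DESeq2 called 27 members fallen and 6 risen, against 2501 and 2854 of 26376 features in all. Limma-voom called 28 and 6, against 2728 and 2841 of 13804. With the replicate block, 23 members fell and 6 rose, against 2353 and 2485 of 13804 features in all. Eif2b5, Eif2s2 and Eif4a1 were not called with it (adjusted p = 0.0679, 0.0676 and 0.0646). The titles do not say whether same-numbered samples were paired. The correlations of same-numbered deviations were -0.0757, -0.0331 and 0.0552, and only replicate 3 correlated best with its own number. With 3 samples per group, these correlations cannot decide whether same-numbered samples shared a culture or batch. Counting depth limits Eif4e1b, Eif4ebp3, Eef1a2 and Eif2s3y, which were not tested, and leaves the scarce methyltransferases with wide errors.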
